A study of Mus musculus with 6 samples.

Results

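The genes described are the nuclear-encoded subunits of the last 3 complexes of oxidative phosphorylation, read in mouse oocytes after treatment with AMH. Of the 54532 genes in the count table, 45 were taken by name: protein-coding genes whose symbols begin with Uqcr, with Atp5 or with Cox4 to Cox8 followed by an isoform letter, and Cyc1. They comprised 9 genes of complex III, 18 of complex IV and 18 of complex V. The rule used symbols and no measured value, but it was chosen with earlier results of these data known.

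Complex III takes electrons from ubiquinol and passes them to cytochrome c, complex IV passes them from cytochrome c to oxygen, and both move protons across the inner mitochondrial membrane. Complex V, the ATP synthase, lets protons back through its membrane part Fo and uses the flow to make ATP in its catalytic head F1. A few core subunits are encoded by mitochondrial DNA and all the others by nuclear genes, many of them small subunits around the core, some with tissue-restricted isoforms. Oocytes are rich in mitochondria and depend on oxidative phosphorylation for maturation.

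The libraries were made from oocytes of C57BL/6J mice whose labelled age was 6 to 7 weeks, 3 libraries labelled AMH and 3 labelled control. AMH is anti-Müllerian hormone, a granulosa cell hormone of the TGF-beta family. The treatment was 300 ng of recombinant mouse AMH made in E. coli, given once a day into the peritoneal cavity from 21 days of age, and the RNA went through a SMART v4 kit and poly-T bead selection. The labels do not say whether control mice were injected, the number or stage of the oocytes in a library, whether cumulus cells were removed, or whether each library came from its own mouse. P-values therefore refer to the spread among the libraries alone, and that spread may be technical.

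Each library held 66392859 to 72109080 counts. Libraries stood apart in ways the group labels do not give. By a chi-square statistic over genes, AMH 3 and control 3 differed least of all pairs, with 55.9 per degree of freedom, against 69.2 for AMH 1 and AMH 2 and 66 for controls 1 and 2. Summed CPM (counts relative to a TMM-scaled library size) of 24 oocyte markers were 16938, 16436 and 27301 in AMH 1, 2 and 3, against 33580, 37310 and 28065 in controls 1, 2 and 3. Of these markers 23 were tested, all had a negative fold change, and Sohlh1 was at 0 in AMH 2 and in controls 1 and 2. Summed CPM of 21 cumulus and granulosa markers were 4421, 3660 and 4290 in the AMH libraries, against 1416, 1125 and 4554 in the controls, and 18 of the 21 had a positive fold change. Oviduct epithelium markers summed to 160 to 763 CPM in the AMH libraries, against 25.8 to 175 CPM in the controls, with positive fold changes for 10 of 10. Blood and immune markers summed to 81.8 to 394 CPM in the AMH libraries and 5.14 to 23.7 CPM in the controls, with 9 of 10 positive. Hbb-bt was at 0 in control 1, and Adgre1 and C1qa were at 0 in control 2. Endothelium markers summed to 118 to 191 CPM in the AMH libraries and 207 to 252 CPM in the controls, and Emcn was at 0 in all 6 libraries. Of the 5 tested, 4 were negative and 1 positive, Cdh5, for which every AMH library was above every control. Most of the endothelium sum was Pecam1, with means of 110 CPM in the AMH libraries and 170 CPM in the controls. The part of these cells in the results below was not tested beyond the values given there, and in such bulk libraries fewer cells of a type and less RNA per cell cannot be told apart.

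Most subunit genes of the 3 complexes had higher values in the AMH libraries, and no gene passed the test. Of the 45 genes, 42 had counts and 3 were listed at 0 in every library: Cox8b, Cox7b2 and a second gene with the symbol Atp5o. The filter on low counts kept 41, leaving out Cox8c, and 40 of these reached its level in every library of both groups. Cox7a1 reached it in every AMH library but not in every control. Of the 41, 38 had a positive log2 fold change of AMH over control and 3 a negative one, and 28 were at least 2-fold higher in the AMH libraries. The median log2 fold change was 1.35 over the 41 subunit genes and -0.01 over all 18868 genes tested, whose lower and upper quartiles were -0.58 and 1.12.

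Every AMH library was above every control for 37 of the 41 genes, against 26.9% of all genes tested. Every AMH library was below every control for 1 of them, Uqcrc2, against 23.3% of all genes. With edgeR's quasi-likelihood test and Benjamini-Hochberg adjustment, 0 of 18868 genes were called, 0% in either direction, and the lowest adjusted p of any gene was 0.116. At an unadjusted p under 0.05 the same test took 32 of the 41 higher and 2 lower, against 20.2% and 17.3% of all genes. DESeq2 called 30 of the 41 higher and 0 lower, against 15.7% and 5.71% of 18730 genes, and at an unadjusted p under 0.05 it took 34 higher and 0 lower, against 30.2% and 18.4%. Limma-voom called 0 genes at the adjusted threshold, and at an unadjusted p under 0.05 it took 35 higher and 2 lower, against 28.5% and 18.7%. Limma on log2(FPKM + 1) called 0 as well.

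The calls turned on AMH 3 and control 3. Without control 3, edgeR called 31 of the 41 higher and 1 lower, against 26.8% and 11.2% of all genes. Without AMH 3 it called 10 higher and 0 lower, against 1.45% and 6.73%. Without both it called 35 higher and 2 lower, against 29.4% and 21.6%. Leaving out any of the other 4 libraries left 0 genes called.

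**Figure D1:**
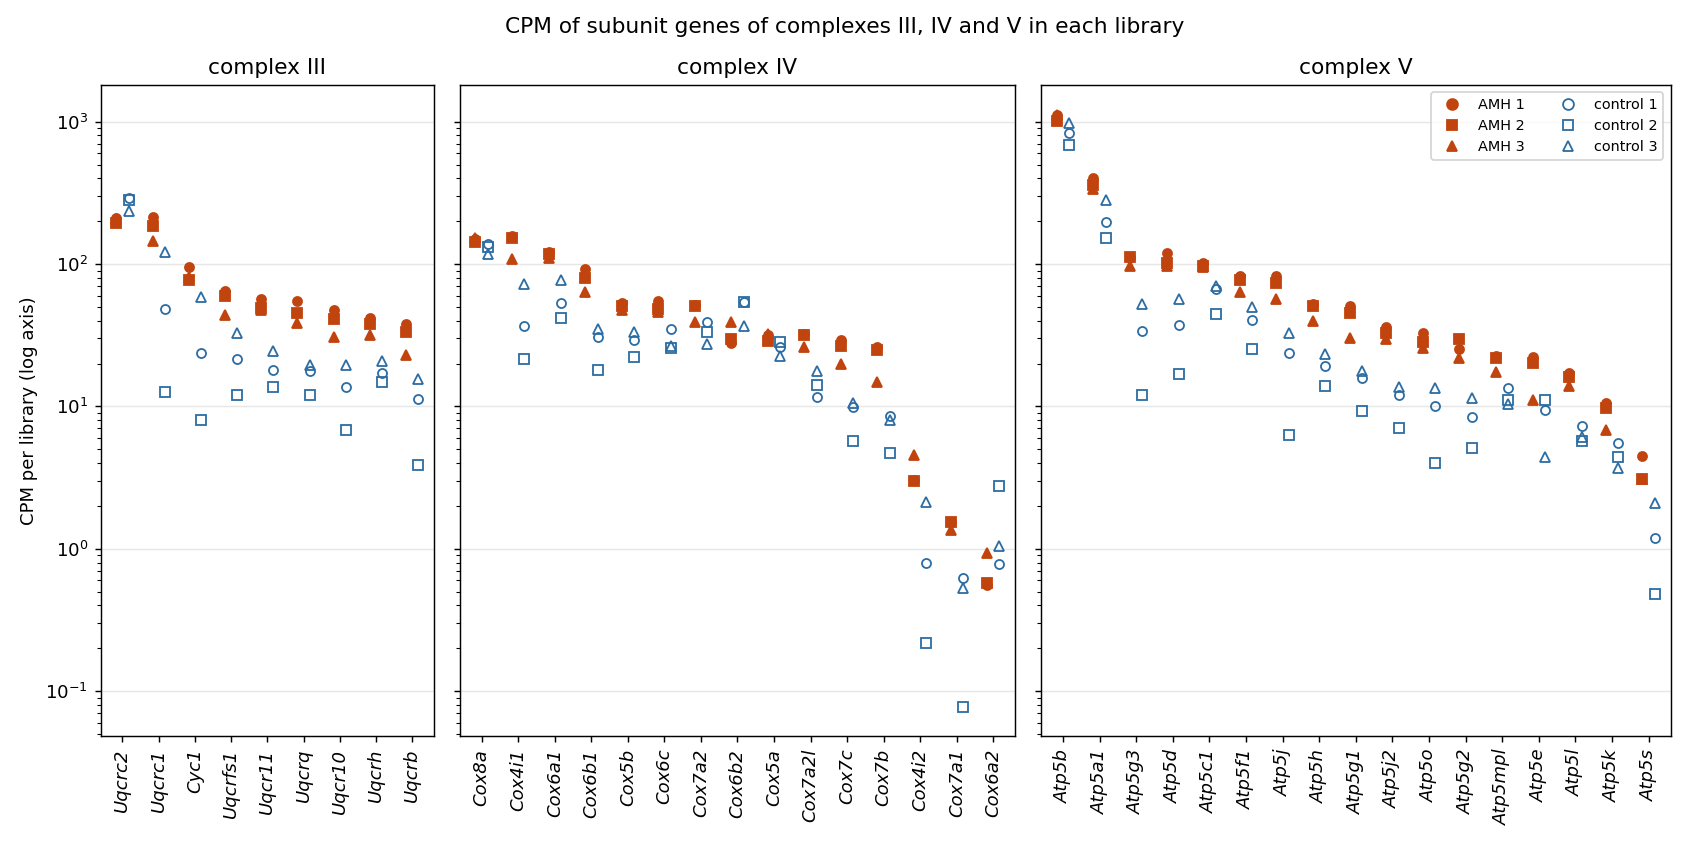
CPM (log axis) of the 41 tested subunit genes of complexes III, IV and V in each of the 3 AMH libraries (filled) and 3 control libraries (open), genes ordered by level within each complex. The filled symbols lie above all open ones for 37 genes, Uqcrc2 lies the other way, and control 2 is the lowest point of 31 genes.

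To show what lies upstream of genes that had like values, promoter windows from RefSeq (build GRCm38.p6, mostly upstream of each gene's start and a short stretch after it) were searched for letters of known factors. A window was matched for 29 of the 45 genes. Windows are given for Uqcr11, Cox6b1 and Atp5h, which are among the genes of smallest p in their complexes, and for Cox6b2, the isoform of Cox6b1 with the opposite sign. All 4 lie on the minus strand, at chr10:80406772-80407071 for Uqcr11, chr7:30626065-30626364 for Cox6b1, chr7:4753045-4753344 for Cox6b2 and chr11:115419870-115420169 for Atp5h. Capitals mark GCGCANGCG (NRF1 form with a free base), CCGGAAG (ETS factors, which include GABPA), AAGATGGC (YY1) and CCAAT (NF-Y) on either strand.
Uqcr11: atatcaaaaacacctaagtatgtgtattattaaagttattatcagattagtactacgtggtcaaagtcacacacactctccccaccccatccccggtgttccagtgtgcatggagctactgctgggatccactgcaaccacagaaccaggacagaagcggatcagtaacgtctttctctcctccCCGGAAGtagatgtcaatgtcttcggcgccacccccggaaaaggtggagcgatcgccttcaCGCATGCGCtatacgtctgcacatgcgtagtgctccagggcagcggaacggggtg
Cox6b1: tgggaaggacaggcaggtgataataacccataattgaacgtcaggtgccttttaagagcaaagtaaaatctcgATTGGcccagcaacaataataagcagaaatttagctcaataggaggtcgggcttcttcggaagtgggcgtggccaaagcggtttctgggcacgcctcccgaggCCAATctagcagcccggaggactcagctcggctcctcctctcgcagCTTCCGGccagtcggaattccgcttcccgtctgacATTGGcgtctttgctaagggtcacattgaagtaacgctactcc
Cox6b2: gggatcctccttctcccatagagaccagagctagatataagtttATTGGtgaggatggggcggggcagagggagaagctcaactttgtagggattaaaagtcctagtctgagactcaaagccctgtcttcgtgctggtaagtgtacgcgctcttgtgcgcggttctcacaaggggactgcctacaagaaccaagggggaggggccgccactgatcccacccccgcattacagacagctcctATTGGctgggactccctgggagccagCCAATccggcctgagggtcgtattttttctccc
Atp5h: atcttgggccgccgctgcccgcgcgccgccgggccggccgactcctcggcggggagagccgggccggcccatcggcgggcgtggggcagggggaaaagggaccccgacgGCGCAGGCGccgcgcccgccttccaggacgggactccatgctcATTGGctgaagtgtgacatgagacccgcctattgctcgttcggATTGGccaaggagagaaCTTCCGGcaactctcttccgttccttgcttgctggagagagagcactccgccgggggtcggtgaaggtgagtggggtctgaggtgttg
The Uqcr11 window held the NRF1 form and the ETS letters, the Cox6b1 window the ETS letters and CCAAT, and the Atp5h window the NRF1 form, the ETS letters and CCAAT. The Cox6b2 window held CCAAT and neither the NRF1 form nor the ETS letters. The windows of Uqcr10, Cox7b, Cox7a1, Atp5b, Atp5g1 and Atp5j2, all with positive fold changes, also held CCAAT and neither of those. The Cox8a window held the ETS letters and CCAAT, at a log2 fold change of 0.20. Whether the letters go with the direction of a gene was not tested.

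Over the 29 genes with a window, GCGCANGCG was in 10 (34.5%), against 6.25% of 32851 promoter windows of the same length. Those 10 were Uqcr11 and Uqcrc1 of complex III, Cox6a1 of complex IV, and Atp5c1, Atp5g2, Atp5g3, Atp5h, Atp5k, Atp5l and Atp5o of complex V. A longer form with a further C at the end had been searched first and was in 8, against 4.6%, and with T as the free base as well it was in 4, against 0.971%; the shorter form was chosen after these were seen. CCGGAAG was in 10 (34.5%), against 8.86% of all windows, and with a further T it was in 4, against 3.89%. CCAAT was in 16 (55.2%), against 37.4%. AAGATGGC was in 2, against 2.75%, and extended by GGC it was in 0, against 0.633%. A gene was counted if any window matched to it held the letters, whereas the 32851 windows were counted singly. Those windows were not restricted by expression, gene type or base composition, so the percentages set side by side are not a like comparison. A match is a run of letters and does not show binding.

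Among complex III genes, 8 of 9 had higher values in the AMH libraries, and the core subunit gene Uqcrc2 had the opposite sign. The median log2 fold change was 1.49, with a range from -0.41 to 1.63. Summed over the 9 genes, complex III had 823, 721 and 649 CPM in AMH 1, 2 and 3, against 464, 365 and 547 CPM in controls 1, 2 and 3. Its mean was 731 ± 87.5 CPM in the AMH libraries and 459 ± 91.0 CPM in the controls (SD, n = 3 each), and the groups did not overlap. DESeq2 called 6 of the 9 higher and 0 lower. In the sentences that follow, values are CPM in libraries 1, 2 and 3 of each group, fold changes are log2 of AMH over control ± SE, and edgeR's adjusted p was 0.116 wherever a fold change stands with its SE and no other p is given.

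The genes of smallest p in complex III all encode small subunits around the core. Uqcr11 (chromosome 10, 80402997 to 80406830) had 56.6, 49.5 and 47.4 CPM in the AMH libraries, against 18.1, 13.8 and 24.4 CPM in the controls. Uqcrq (chromosome 11, 53427922 to 53430831), the ubiquinone-binding small subunit, had 54.8, 45.4 and 38.4 CPM in the AMH libraries, against 17.7, 12.0 and 19.7 CPM in the controls. In both genes the lowest AMH library was well above the highest control, which was control 3. The log2 fold change was 1.45 ± 0.25 for Uqcr11 and 1.49 ± 0.26 for Uqcrq. Uqcr10 (chromosome 11, 4701973 to 4704342) had 47.3, 41.2 and 30.7 CPM in the AMH libraries, against 13.7, 6.80 and 19.5 CPM in the controls. Uqcrh (chromosome 4, 116066965 to 116075071), the hinge protein that aids the docking of cytochrome c, had 41.7, 38.1 and 31.8 CPM in the AMH libraries, against 17.2, 15 and 20.7 CPM in the controls. Both showed AMH 3 as the lowest AMH library and control 2 as the lowest control, with log2 fold changes of 1.58 ± 0.40 for Uqcr10 and 1.08 ± 0.22 for Uqcrh.

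Uqcrc1 and Cyc1 of complex III had widely spread controls. Uqcrc1 (chromosome 9, 108936633 to 108949623), a core protein of the matrix side, had 216, 184 and 145 CPM in the AMH libraries, against 48.0, 12.6 and 121 CPM in the controls. Cyc1 (chromosome 15, 76343523 to 76346260), cytochrome c1, had 95.9, 77.1 and 80.6 CPM in the AMH libraries, against 23.6, 7.98 and 58.3 CPM in the controls. In both, control 3 lay far nearer the AMH libraries than control 2 did. The log2 fold change of Uqcrc1 was 1.59 ± 0.72, with an edgeR adjusted p of 0.148, and that of Cyc1 was 1.5 ± 0.64, with an edgeR adjusted p of 0.138. Uqcrfs1, the Rieske iron-sulfur protein, had 56.1 ± 10.7 CPM in the AMH libraries and 22.1 ± 10.2 CPM in the controls, with groups apart. Uqcrb, another ubiquinone-binding subunit, had 31.5 ± 7.67 CPM in the AMH libraries and 10.2 ± 5.91 CPM in the controls (SD, n = 3 each), also without overlap.

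Uqcrc2 (chromosome 7, 120635176 to 120659524), the second core protein, had 209, 193 and 208 CPM in the AMH libraries, against 293, 281 and 236 CPM in the controls. Every AMH library was below every control, which holds for no other of the 41 genes. The log2 fold change was -0.41 ± 0.15, with an edgeR adjusted p of 0.120, and it was 0.36 when libraries were scaled to the oocyte markers. The proteins of Uqcrc1 and Uqcrc2 pair in the complex, so their FPKM (counts per length and library size) were set side by side, a pairing chosen after their values were seen and given without a test. Uqcrc1 over Uqcrc2 in FPKM was 0.636, 0.588 and 0.431 in AMH 1, 2 and 3, against 0.101, 0.0276 and 0.316 in controls 1, 2 and 3. Per length, Uqcr11 and Uqcrc2 were level at the top of complex III in the AMH libraries, with 77.6 ± 9.06 and 77.4 ± 3.32 FPKM (SD, n = 3), and Uqcrc2 was above Uqcr11 in AMH 3. In the controls Uqcrc2 was the highest, with 101.4 ± 12.5 FPKM and 44.6% of the complex's sum. These FPKM rest on deposited gene lengths of 4135, 2552 and 641 bases for Uqcrc1, Uqcrc2 and Uqcr11. Their principal transcripts have 1653, 1896 and 445 bases, so the ratio and the order depend on the length used.

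Complex IV was the least uniform of the complexes: 13 of 15 tested genes had higher values in the AMH libraries, and 2 tissue-restricted isoforms, Cox6b2 and Cox6a2, had the opposite sign. The median log2 fold change was 1.01, with a range from -1.16 for Cox6a2 to 1.84 for Cox7a1. Both ends are genes of low level. Mean CPM in AMH and control libraries were 0.687 and 1.53 for Cox6a2, and 1.48 and 0.410 for Cox7a1. The summed level was 834, 788 and 707 CPM in AMH 1, 2 and 3, against 475, 405 and 490 CPM in controls 1, 2 and 3. The mean was 777 ± 64.5 CPM in the AMH libraries and 457 ± 45.1 CPM in the controls (SD, n = 3 each). DESeq2 called 9 of the 15 higher and 0 lower.

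The complex IV genes named here are nuclear genes, and Cox6b1, Cox7c and Cox7b encode subunits that surround the catalytic core. Cox6b1 (chromosome 7, 30616861 to 30626151), the ubiquitous isoform on the intermembrane side, had 92.6, 80.4 and 63.3 CPM in the AMH libraries, against 30.6, 18.1 and 35.1 CPM in the controls. Cox7c (chromosome 13, 86044816 to 86046904) had 29.1, 26.7 and 19.9 CPM in the AMH libraries, against 9.88, 5.72 and 10.5 CPM in the controls. Cox7b (X chromosome, 106015700 to 106022450) had 26.1, 24.7 and 15 CPM in the AMH libraries, against 8.53, 4.72 and 8.02 CPM in the controls. In all of these AMH 3 was the lowest AMH library and control 2 the lowest control, without overlap. The log2 fold changes were 1.5 ± 0.29 for Cox6b1, 1.54 ± 0.31 for Cox7c and 1.63 ± 0.34 for Cox7b. Cox7a2l (chromosome 17, 83501919 to 83514333), taken with complex IV by its symbol, had 32.5, 31.8 and 26.2 CPM in the AMH libraries, against 11.6, 14.2 and 17.6 CPM in the controls. Here the lowest control was control 1, and the log2 fold change was 1.06 ± 0.24.

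Per length the highest complex IV genes were Cox8a and Cox6a1. Cox8a (chromosome 19, 7215158 to 7217616), the ubiquitous isoform of the smallest subunit, had 151, 142 and 152 CPM in the AMH libraries, against 138, 132 and 117 CPM in the controls. The groups did not overlap but lay close, with a log2 fold change of 0.20 ± 0.14 and an edgeR adjusted p of 0.300, and with upper-quartile scaling the fold change was -0.03. Cox8a had a mean of 264 FPKM in the AMH libraries and 227 FPKM in the controls, which was 31.8% and 44.3% of the complex IV sum in those groups. Cox6a1 (chromosome 5, 115345642 to 115348981), the ubiquitous isoform of its family, had 121, 117 and 110 CPM in the AMH libraries, against 53.5, 42.0 and 77.7 CPM in the controls. Its groups were apart, and its log2 fold change was 1.01 ± 0.24.

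The other ubiquitous complex IV genes had log2 fold changes from 0.27 to 1.68. Cox4i1 (chromosome 8, 120668222 to 120674207), the common isoform of the subunit through which ATP and ADP act on the enzyme, had 157, 152 and 109 CPM in the AMH libraries, against 36.5, 21.7 and 72.8 CPM in the controls. The AMH libraries all lay above the controls, and the log2 fold change was 1.68 ± 0.44. Cox5b, Cox6c and Cox7a2 had log2 fold changes of 0.84, 0.78 and 0.50, and the groups of each did not overlap, though AMH 3 lay just above control 1 for Cox7a2, whose edgeR adjusted p was 0.132. Cox5a had the next lowest positive value after Cox8a, with 30.9 ± 1.86 CPM in the AMH libraries and 25.7 ± 2.83 CPM in the controls (SD, n = 3 each), a log2 fold change of 0.27 and an edgeR adjusted p of 0.278.

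Cox6b2 (chromosome 7, 4751792 to 4753094), the isoform known from testis, had 27.8, 29.9 and 39.2 CPM in the AMH libraries, against 54.2, 54.1 and 36.9 CPM in the controls. AMH 3 lay just above control 3, so the groups overlapped, and the other libraries were apart. The log2 fold change was -0.58 ± 0.24, with an edgeR adjusted p of 0.126, and it was 0.16 with scaling to the oocyte markers. Without control 3 it was -0.75, with an edgeR adjusted p of 0.0361. Cox6a2, the isoform of heart and skeletal muscle, was low, with 0.555, 0.576 and 0.931 CPM in the AMH libraries, against 0.776, 2.77 and 1.05 CPM in the controls. Its groups overlapped, and its edgeR adjusted p was 0.161.

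Isoform balance was measured as the share of each isoform in the summed FPKM of its family, which does not depend on library scaling. For 8 isoforms of families with more than a single detected gene, AMH and control were compared with a two-sided exact permutation test, which at 3 against 3 libraries cannot give a p under 0.1. Cox6b2 made up 16.1%, 19.2% and 28.4% of the Cox6b family in AMH 1, 2 and 3, against 53.1%, 65.6% and 40.2% in controls 1, 2 and 3. The groups did not overlap, with means of 21.2 ± 6.39% and 53.0 ± 12.7% in AMH and control libraries (SD, n = 3 each, exact p = 0.1, adjusted over the 8 comparisons 0.267). With the length of the principal transcript in place of the deposited gene length, a setting chosen after the data were seen, the means were 30.6% in AMH libraries and 64.6% in controls. As a ratio, Cox6b2 over Cox6b1 in FPKM was 0.192, 0.238 and 0.396 in the AMH libraries, against 1.13, 1.91 and 0.672 in the controls.

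The Cox6a and Cox7a families also had isoform shares whose groups did not overlap, at far lower levels. Cox6a2 made up 0.614 ± 0.218% of its family in the AMH libraries and 3.08 ± 2.86% in the controls (exact p = 0.1, adjusted 0.267). The controls had 1.47%, 6.38% and 1.37%, and without control 2 their mean was 1.42%. Cox7a1, the muscle isoform, made up 5.27 ± 0.440% in the AMH libraries and 2.14 ± 1.53% in the controls (exact p = 0.1, adjusted 0.267), with 1.36 to 1.54 CPM in the AMH libraries and 0.0779 to 0.620 CPM in the controls. Cox4i2, an isoform known from lung, made up 4.97 ± 2.24% of its family in the AMH libraries and 3.83 ± 1.78% in the controls, a difference within the spread (exact p = 0.7, adjusted 0.7). With the length of the principal transcript, the Cox4i2 means were 2.71% in the AMH libraries and 2.08% in the controls. Cox8c, another testis isoform, made up 0.0254% and 0.0969% in AMH and control libraries (exact p = 0.4, adjusted 0.64). It was at 0 in control 3, and without control 2 the control mean was 0.0401%.

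**Figure D2:**
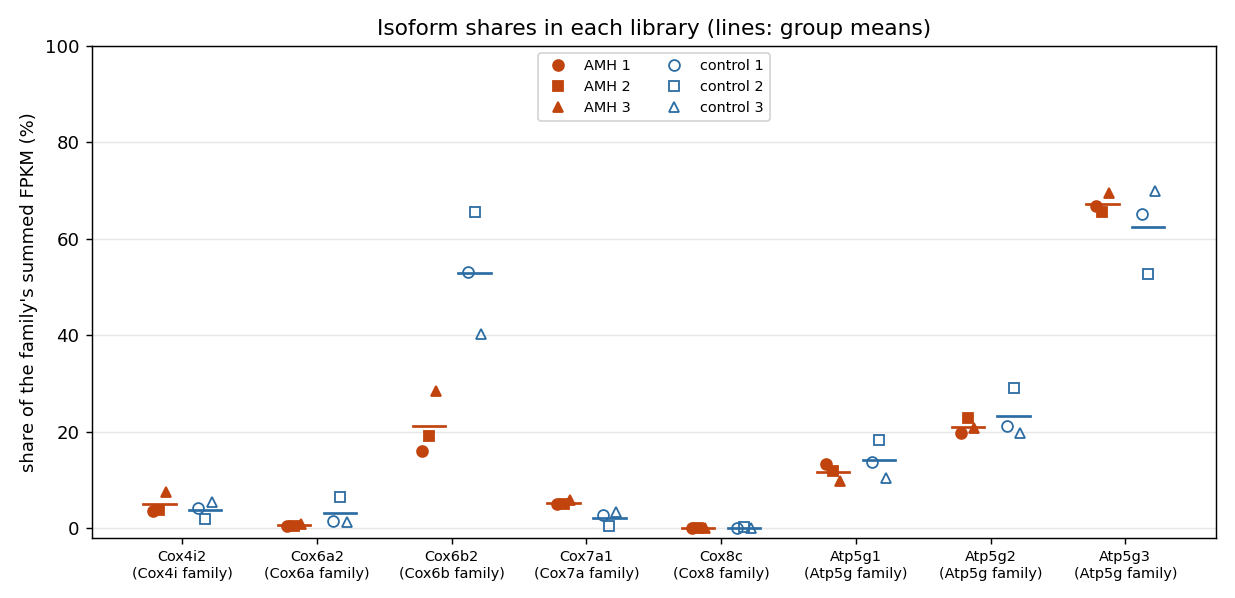
Share of each isoform in the summed FPKM of its gene family (percent, vertical axis) in the 3 AMH libraries (filled) and the 3 control libraries (open), with lines at the group means. Cox6b2 lies between 16.1% and 28.4% in the AMH libraries and between 40.2% and 65.6% in the controls, while the shares of the c-ring genes of complex V overlap.

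Complex V had positive fold changes in all 17 genes tested, and in 16 of them every AMH library was above every control. The median log2 fold change was 1.35, with a range from 0.38 to 1.77. The summed level was 2290, 2097 and 2066 CPM in AMH 1, 2 and 3, against 1331, 1021 and 1632 CPM in controls 1, 2 and 3. The mean was 2151 ± 121 CPM in the AMH libraries and 1328 ± 306 CPM in the controls (SD, n = 3 each). DESeq2 called 15 of the 17 higher and 0 lower.

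The catalytic head F1 holds the most abundant gene of complex V, Atp5b, which had the lowest fold change of the complex. Atp5b (chromosome 10, 128083273 to 128090391), the catalytic beta subunit, had 1114, 1017 and 1123 CPM in the AMH libraries, against 829, 691 and 984 CPM in the controls. Control 3 came within a few percent of AMH 2, and the groups did not overlap. The log2 fold change was 0.38 ± 0.19, with an edgeR adjusted p of 0.165. Atp5a1 (chromosome 18, 77773729 to 77782869), the alpha subunit, had 402, 360 and 335 CPM in the AMH libraries, against 197, 153 and 280 CPM in the controls. Its groups were apart as well, with a log2 fold change of 0.80 ± 0.24. Atp5a1 over Atp5b in FPKM, a ratio chosen after the values were seen and given without a test, was 0.488, 0.478 and 0.403 in the AMH libraries, against 0.322, 0.300 and 0.385 in the controls. The size of this ratio depends on the length used. Deposited lengths are 3135 and 4237 bases for Atp5a1 and Atp5b, and principal transcripts 2471 and 1916 bases. Per length Atp5b was the highest complex V gene in both groups, with 36.7% of the complex's summed FPKM in the AMH libraries and 49.5% in the controls.

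The other F1 genes encode the central stalk. Atp5c1, the gamma subunit, had 97.7 ± 3.63 CPM in the AMH libraries and 60.4 ± 13.9 CPM in the controls. Atp5d, the delta subunit, had 106 ± 12.0 CPM in the AMH libraries and 37.2 ± 20.1 CPM in the controls (SD, n = 3 each). The groups of both were apart, with log2 fold changes of 0.69 for Atp5c1 and 1.51 for Atp5d. Atp5e, the epsilon subunit, had 22.1, 20.2 and 11.1 CPM in the AMH libraries, against 9.46, 11.1 and 4.43 CPM in the controls. AMH 3 and control 2 were level, so Atp5e is the complex V gene whose groups overlap, and its edgeR adjusted p was 0.123.

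Genes of smallest p in complex V encode parts of the membrane sector and of the stalk that holds F1. Atp5l (chromosome 9, 44912557 to 44920742), subunit g, had 17.1, 16.0 and 14.0 CPM in the AMH libraries, against 7.23, 5.70 and 6.08 CPM in the controls. Atp5j2 (chromosome 5, 145183698 to 145192062), subunit f, had 35.9, 32.6 and 29.9 CPM in the AMH libraries, against 12.0, 7.08 and 13.8 CPM in the controls. In both, the lowest AMH library was well above the highest control. The log2 fold changes were 1.31 ± 0.23 for Atp5l and 1.58 ± 0.29 for Atp5j2. Atp5h (chromosome 11, 115415689 to 115419962), subunit d of the peripheral stalk, had 52.7, 50.5 and 40.0 CPM in the AMH libraries, against 19.1, 13.8 and 23.3 CPM in the controls. The groups were apart, with a log2 fold change of 1.35 ± 0.25. The other peripheral stalk genes Atp5f1 (subunit b), Atp5j (coupling factor F6) and Atp5o (the oligomycin sensitivity protein) had log2 fold changes of 0.95, 1.77 and 1.66, again without overlap.

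The c-ring, the rotor that protons turn, is encoded by Atp5g1, Atp5g2 and Atp5g3, whose mature proteins are the same. Atp5g2 (chromosome 15, 102662864 to 102672352) had 25.5, 29.8 and 22.0 CPM in the AMH libraries, against 8.44, 5.08 and 11.4 CPM in the controls. AMH 2 was the highest library here, and the log2 fold change was 1.63 ± 0.34. Atp5g1 and Atp5g3 had like log2 fold changes of 1.55 and 1.70. Atp5g3 held most of the c-ring FPKM, 67.3 ± 2.08% in the AMH libraries and 62.5 ± 8.92% in the controls (exact permutation p = 0.5, adjusted 0.667). Atp5g1 held 11.6 ± 1.84% and 14.1 ± 3.90% in AMH and control libraries (exact p = 0.4, adjusted 0.64), and Atp5g2 held 21.1 ± 1.55% and 23.3 ± 5.10% (exact p = 0.7, adjusted 0.7). These shares depend on the gene length used. With the length of the principal transcript, Atp5g1 held 4.61% and 5.78% in AMH and control libraries. Atp5g2 then held 18.3% and 21.0%, and Atp5g3 77.1% and 73.2%. For the c-ring the differences were within the spread, at a size of test that could not go below 0.1. Among the remaining genes, Atp5k (subunit e), Atp5mpl (a small proteolipid) and Atp5s (named for coupling factor B) had log2 fold changes of 1.00, 0.83 and 1.5, and the edgeR adjusted p of Atp5s was 0.118.

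**Figure D3:**
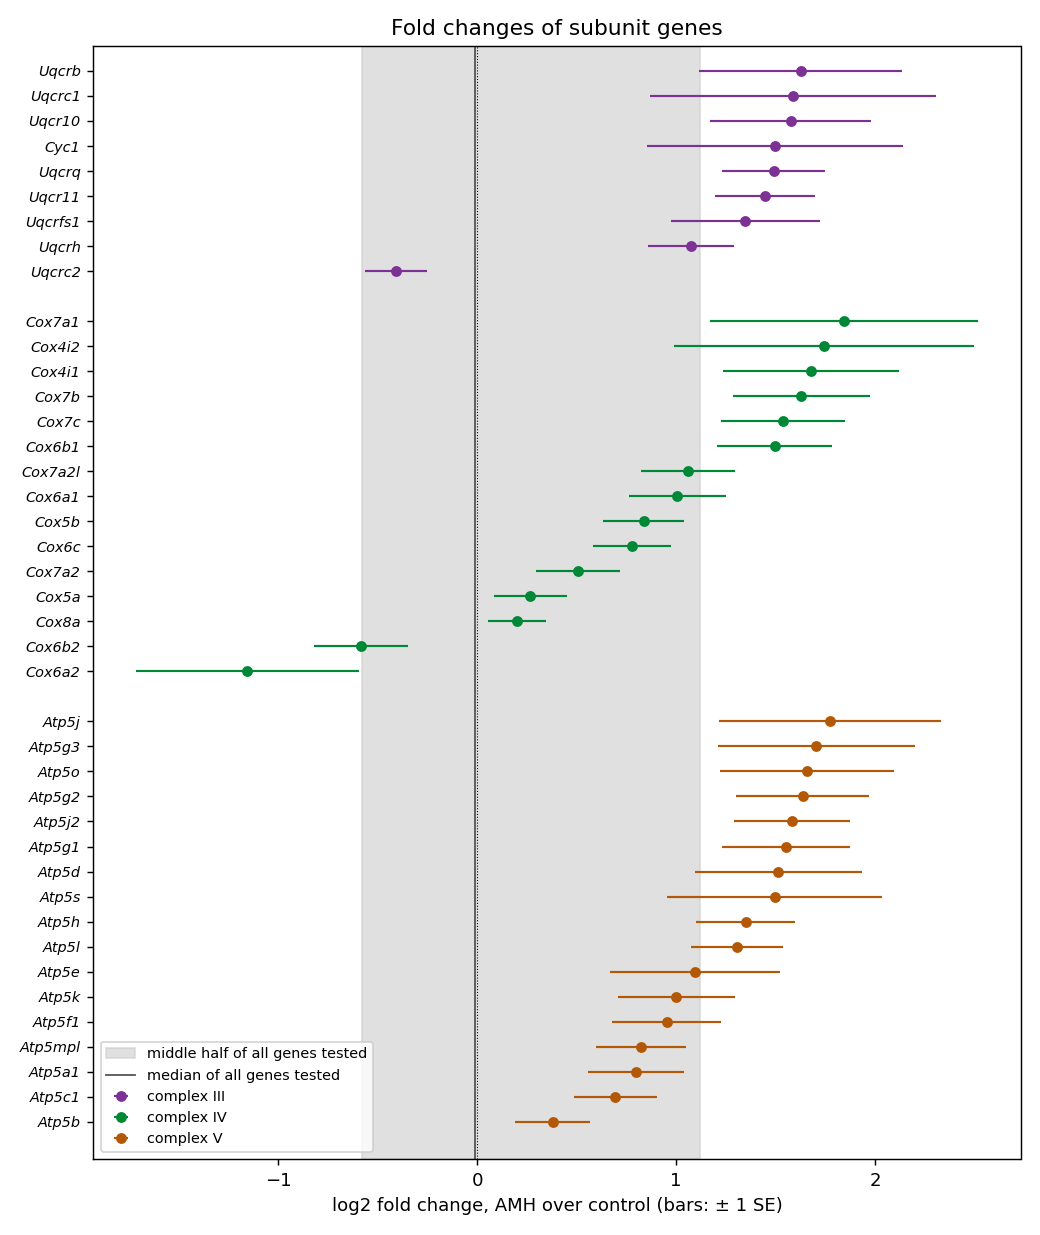
Log2 fold change of AMH over control for the 41 tested genes by complex, with bars of 1 standard error, over a grey band from the lower to the upper quartile of all 18868 genes tested. All complex V genes lie right of 0, while Uqcrc2 of complex III and Cox6b2 and Cox6a2 of complex IV lie left of it.

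The median fold change was lowest among the 5 members of highest level, and medians over all genes also differed by level. Among members with a mean under 20 CPM over the 6 libraries, the median log2 fold change was 1.52 (n = 12), against 0.28 for all genes of that level. Between 20 and 50 CPM it was 1.35 (n = 16), against 0.10, and between 50 and 100 CPM it was 1.5 (n = 8), against -0.27. At 100 CPM or more it was 0.38 (n = 5), against -0.56 for all genes, although Uqcrc1 of that class had 1.59. The members are short genes, so length was compared too. In members with a deposited gene length up to 1000 bases the median was 1.45 (n = 11), against 0.61 for 434 protein-coding genes. From 1000 to 2000 bases it was 1.35 (n = 16), against 0.50, and from 3000 to 5000 bases it was 1.25 (n = 8), against 0.24. Over the 41 members, which share the same 6 libraries, Spearman's rho of fold change with gene length was 0.0124, as a description.

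The libraries of a group did not stand level. AMH 1 was the highest library for 33 of the 41 genes and control 2 the lowest for 31. Among the AMH libraries the order was AMH 1, AMH 2, AMH 3 for 32 genes, and among the controls control 3 was highest for 28. Control 3 was above control 2 for 32 of 41 genes, with a median log2 ratio of 0.87 over the members and 0.04 over all genes. In AMH 3 and control 3 the oocyte markers summed to 27301 and 28065 CPM, the cumulus markers to 4290 and 4554 CPM, the oviduct markers to 160 and 175 CPM, the endothelium markers to 191 and 207 CPM, and the blood and immune markers to 81.8 and 23.7 CPM. AMH 3 was above control 3 for 39 of 41 genes, against 51.0% of all genes. For the 37 genes with every AMH library above every control, this already follows from that earlier count. The median log2 ratio of AMH 3 over control 3 was 0.66 over the members, with 0.56 in complex III, 0.57 in complex IV and 0.78 in complex V, against 0.01 over all genes. This sets a single library against a single library, with no replicate check, and the part of any cell type in it was not tested.

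With the cumulus marker level as a covariate in the edgeR fit, the median log2 fold change was 0.87 in complex III, 0.80 in complex IV and 1.06 in complex V, and 0 genes were called. The log2 fold changes of Uqcrc2, Cox6b2 and Cox6a2 were then -0.25, -0.26 and -0.57.

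**Figure D4:**
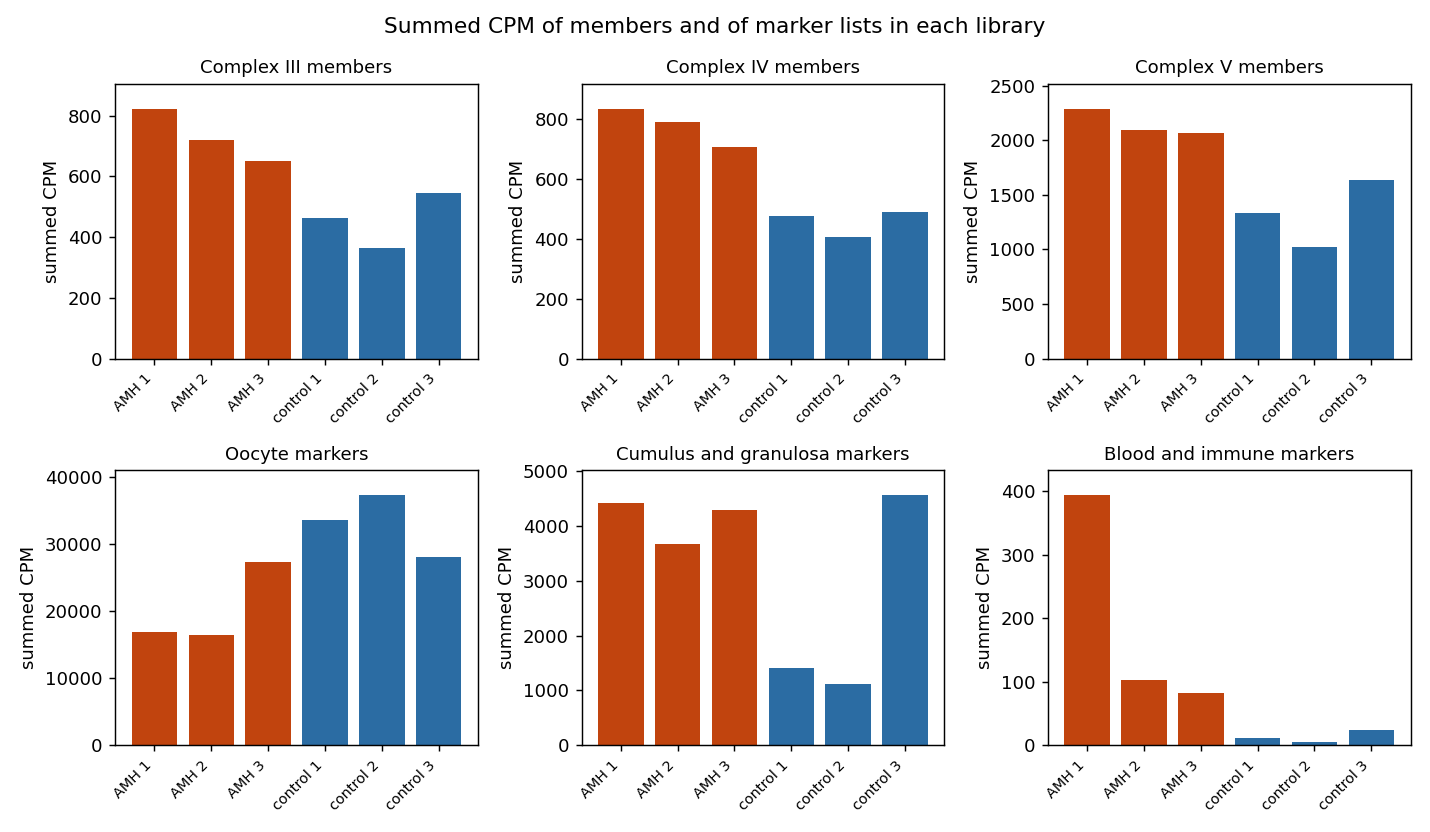
Summed CPM of the genes of each complex (top) and of oocyte, cumulus and granulosa, and blood and immune markers (bottom) in AMH 1 to 3 and controls 1 to 3, a bar per library. The complexes are higher in each AMH library than in each control, whereas cumulus markers in control 3, at 4554 CPM, lie above those of every AMH library.

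Genes of the same pathway outside the 45 were read from lists, in which edgeR called 0 genes. For the counts in these lists, every AMH library was above every control in 26.9% of all genes tested and below in 23.3%. DESeq2 called 15.7% of all genes higher and 5.71% lower. For complex I, 46 nuclear genes were taken by symbols beginning with Nduf. They include the assembly factors Ndufaf1 to Ndufaf8, and Ndufa4 and Ndufa4l2, which are read again below with cytochrome c. Of the 46, 42 had positive and 4 negative fold changes, with a median of 1.26. In 38 every AMH library was above every control and in 1 below, and DESeq2 called 37 higher and 0 lower. Complex II, which has no proton pump, had a median of 0.80 over 4 genes, 3 of them without overlap, and DESeq2 called 2 higher. Its membrane anchor genes Sdhd and Sdhc had 73.3 ± 17.7 and 46.8 ± 5.89 CPM in the AMH libraries, against 36.4 ± 10.3 and 31.1 ± 4.49 CPM in the controls. Its catalytic gene Sdha had a log2 fold change of -0.27, with overlapping groups and an edgeR adjusted p of 0.275.

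Assembly factors, which build the complexes and do not stay in them, differed by complex. For complex III, 4 of 6 were positive and 2 negative, with a median of 0.87. Uqcc2, needed to make cytochrome b, had 17.5 ± 6.23 CPM in the AMH libraries and 6.95 ± 1.44 CPM in the controls. Uqcc3 had 14.4 ± 3.27 CPM in the AMH libraries and 3.54 ± 2.64 CPM in the controls. For complex IV, 18 of 22 tested were positive and 4 negative, with a median of 0.83, although the summed level of the list had a lower mean in the AMH libraries, at 647 ± 77.0 CPM, against 713 ± 35.7 CPM in the controls. These sums overlapped, with 735 CPM in AMH 3, against 672 CPM in control 3, and the gene of highest level was Cox10, a heme synthesis enzyme named after its values were seen. Cox10 had 253, 260.1 and 416 CPM in the AMH libraries, against 487, 502 and 412 CPM in the controls. Without Cox10 the sums were 319.7 to 362 CPM in the AMH libraries and 224 to 259.9 CPM in the controls. Coa3 and Coa7, both early assembly factors, had 31.3 ± 5.53 and 12.3 ± 3.07 CPM in the AMH libraries, against 11.5 ± 4.40 and 4.6 ± 1.47 CPM in the controls. For complex V, 3 of 5 were positive and 2 negative, with a median of 0.23. Tmem242 had 7.31 ± 1.54 CPM in the AMH libraries and 3.68 ± 1.33 CPM in the controls, and Atpaf1, a chaperone of the beta subunit, 13.8 ± 2.78 CPM in the AMH libraries and 10.2 ± 1.22 CPM in the controls. DESeq2 called 3 factors of complex III, 9 of complex IV and 1 of complex V higher, and 0 lower, against 15.7% and 5.71% of all genes.

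The partner genes encoded by mitochondrial DNA had another order of libraries. Of 6 such genes 5 were tested, all positive, with a median of 0.81, and DESeq2 called 2 higher, against 15.7% of all genes. The median is that of mt-Co2, which was low, with mean CPM of 3.66 in AMH and 2.09 in control libraries. mt-Co3 and mt-Atp6 were low as well, with 5.31 and 3.10 CPM in AMH libraries and 2.90 and 2.57 CPM in controls. mt-Atp8 was not tested. These levels lie far below those of mt-Co1 and mt-Cytb, and the cause was not tested. mt-Co1, a catalytic core subunit of complex IV, had 422, 629 and 307 CPM in AMH 1, 2 and 3, against 244, 234 and 170 CPM in controls 1, 2 and 3. mt-Cytb, the cytochrome b of complex III, had 563, 705 and 435 CPM in the AMH libraries, against 465, 434 and 303 CPM in the controls. AMH 2 was highest and control 3 lowest in both, and the groups of mt-Cytb overlapped. The log2 fold change was 1.07 ± 0.30 for mt-Co1 and 0.50 ± 0.25 for mt-Cytb, the second with an edgeR adjusted p of 0.169.

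Regulators and other mitochondrial genes had mixed signs. Of 13 regulators of mitochondrial biogenesis, 8 were positive and 5 negative, with a median of 0.49. Every AMH library was above every control for 4 of the 13 and below for 5, against 26.9% and 23.3% of all genes. Tfam, the packaging and transcription factor of mitochondrial DNA, had 13.8, 12.7 and 10.3 CPM in the AMH libraries, against 3.51, 4.30 and 6.79 CPM in the controls. Nrf1, whose letters were searched above, had 72.4, 69.3 and 75.6 CPM in the AMH libraries, against 100.3, 112 and 86.1 CPM in the controls. The groups of both were apart, in opposite directions, with log2 fold changes of 1.33 ± 0.32 for Tfam and -0.46 ± 0.16 for Nrf1, the second with an edgeR adjusted p of 0.118. Of 11 genes of the outer membrane, carriers and matrix, 8 were positive and 3 negative, with a median of 0.44. The ADP/ATP carrier Slc25a4 had 100.2 ± 10.4 CPM in the AMH libraries and 49.1 ± 14.5 CPM in the controls, and the porin Vdac3 59.3 ± 6.83 CPM in the AMH libraries and 38.7 ± 2.47 CPM in the controls. Citrate synthase, Cs, had the opposite sign, with 402 ± 99.7 CPM in the AMH libraries and 560.2 ± 11.9 CPM in the controls. Of the 5 genes of cytochrome c, its lyase and Ndufa4, 4 were positive and 1 negative, with a median of 0.20. Ndufa4l2 had 14.5 ± 1.2 CPM in the AMH libraries and 4.29 ± 3.24 CPM in the controls, and the lyase Hccs 27.6 ± 5.42 CPM and 18.7 ± 6.46 CPM in AMH and control libraries.

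**Figure D5:**
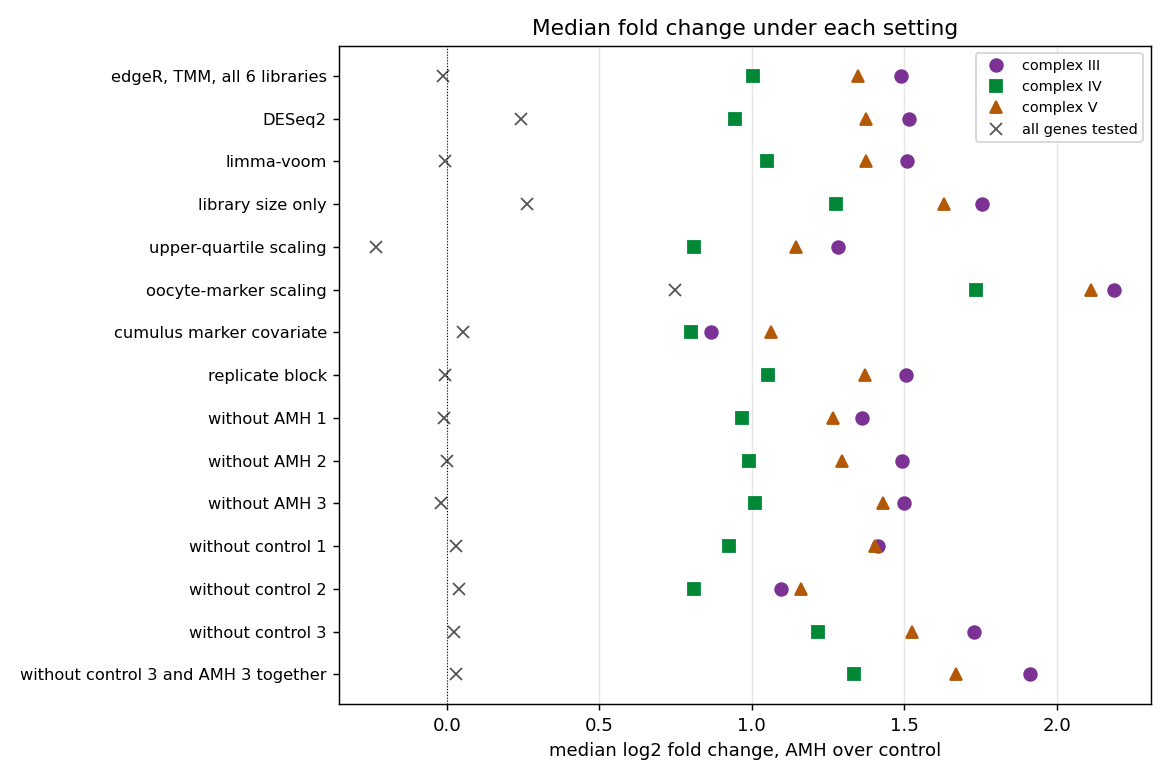
Median log2 fold change of AMH over control for the genes of complexes III, IV and V and for all genes tested, under each processing setting listed down the side. The medians of all 3 complexes stay right of the all-gene median under each setting shown, between 0.80 and 2.19, and the all-gene median itself moves with the scaling.

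Counting may share reads between neighbours. An exon of another gene overlaps 12 members on the opposite strand, among them Atp5j with Gabpa, Atp5f1 with Wdr77, Cox4i1 with Emc8, Cox6c with Vps13b and Atp5a1 with Haus1, and no source used here gives the strand setting. The 10 processed pseudogenes named for members held 27 to 53 counts per library in all, against 114955 to 320352 counts of the members.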

How the data were processed

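For the 6 libraries the authors deposited counts (whole numbers per gene) and FPKM values. Per the submitters' processing notes the tools were DESeq2 1.20.0, featureCounts 1.5.0-p3 and HISAT2 2.0.5, with the builds GRCm38 and mm10; which tool made which value, and the strand setting, is not given in the sources used here. Deposited FPKM divide by a library size of 1.05 to 1.18 times the count total in the AMH libraries and 0.924 to 0.997 times it in the controls. The members and lists were chosen with earlier results of these data known.

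Counts were fitted with edgeR 4.0.16 (R 4.3.3): TMM scaling, filterByExpr (0.144 CPM in 3 libraries), a design of group alone, the robust quasi-likelihood test and Benjamini-Hochberg adjustment at 0.05 over 18868 genes. CPM use the TMM-scaled size. Fold changes of low genes depend on edgeR's prior count. The SE was worked back from the test, as the absolute log2 fold change divided by the square root of the F statistic. Named members were, per complex, the 4 of smallest p averaging 5 CPM or more and the 2 of highest mean FPKM. Up to 2 averaging 5 CPM or more with a sign opposite to the median were added. From each other list, except markers and complex I, the 2 of smallest p averaging 5 CPM or more were taken. Other members are given because all are accounted for; Sdha and Cs were named after their values were seen. Gene positions are those of the deposited table, on GRCm38, of whose identifiers 99.9% were found in GENCODE M21.

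Alternatives were DESeq2 1.42.0, limma 3.58.1 (voom, and log2(FPKM + 1) above 1 FPKM in 3 libraries), other scalings and filters, a cumulus covariate, a replicate block and leaving out libraries. In simulated counts of this comparison over 18332 genes, the share found by edgeR was 0% at 2-fold (64 genes), 31.2% at 4-fold (64 genes) and 61.5% at 8-fold (65 genes). DESeq2, on 18868 genes, made 204 calls, 99 of them in unchanged genes. The genes changed for DESeq2 were 67 at 2-fold, 67 at 4-fold and 66 at 8-fold. In the deposited counts, edgeR's unadjusted p was under 0.05 for 20.2% of genes higher and 17.3% lower. The simulation changed a far smaller share of genes. Its rates therefore give neither the power of edgeR nor the error of DESeq2 in the deposited counts.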

Additional observations from a re-analysis of the deposited data

How the results depend on the processing

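No direction of a complex's median turned under any setting. For all genes, edgeR called 0, DESeq2 called 4002 (30 members), edgeR without both control 3 and AMH 3 called 9885 (37 members), and leaving out a library each gave 0 to 7513 genes and 0 to 32 members. Equal replicate numbers did not pair libraries (correlations of deviations of 0.0241, -0.145 and -0.351). With the replicate number as a block, 0 genes were called and the medians were 1.51, 1.05 and 1.37 in complexes III, IV and V. With oocyte-marker scaling the medians were 2.19, 1.74 and 2.11, with 0.75 over all genes. With the cumulus covariate complexes III and IV had 0.87 and 0.80. Complex IV had 1.28 with library size only, which put all genes at 0.26, and 0.81 with upper-quartile scaling, which put them at -0.23. Without both control 3 and AMH 3, complexes III and IV had 1.91 and 1.33. Leaving out a library each gave 1.09 to 1.73 in complex III, 0.81 to 1.22 in complex IV and 1.16 to 1.53 in complex V. Members with every AMH library below every control numbered 0 with library size only and with oocyte-marker scaling, 3 without both control 3 and AMH 3, and 1 to 3 when a library was left out. Signs turned for Cox8a with upper-quartile scaling (-0.0299) and, with oocyte-marker scaling, for Uqcrc2 (0.36) and Cox6b2 (0.16). The cause was not tested.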
